A study of Homo sapiens with 6 samples.

Results

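A set of 9 genes that divide a cell after mitosis were followed by RNA-seq in 8505C cells, a human cell line from anaplastic thyroid cancer, after knockdown of the kinetochore gene NUF2. The genes are ANLN, RACGAP1, ECT2, PRC1, CIT, CEP55, RHOA, SEPTIN9 and SEPTIN2. They were picked by name, as genes of the central spindle, of the contractile ring and of RhoA control, and the set was chosen because ANLN and RACGAP1 were lower in the knockdown cells of these same libraries. All 9 were found among the 32985 genes of the deposited table, and all 9 passed the filter of a mean of at least 1 FPKM (fragments scaled by gene length and by library size) that left 11725 genes tested.

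One group, siCtrl, was transfected with control siRNA and the other, siNUF2, with an siRNA against NUF2, each with 3 libraries of polyadenylated RNA taken at 24 h. Both groups are the same established line grown in the same medium, with a genotype given as WT for the control group and as NUF2 knockdown for the other. A single siRNA sequence against NUF2 is given for this study, so what follows from loss of NUF2 and what follows from that particular siRNA cannot be told apart. Libraries are named below by group and number, such as siCtrl 1, and nothing in the labels says whether they came from separate cultures, so p-values measure only the spread between these libraries.

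Cytokinesis is the last step of cell division, in which a ring of actin and myosin pinches the cell in the middle and the remaining bridge is cut. PRC1 bundles the antiparallel microtubules of the central spindle. RACGAP1 forms the centralspindlin complex with the kinesin KIF23 on these bundles and recruits ECT2, the exchange factor that loads RHOA with GTP at the cell equator. Active RHOA then turns on formins and citron kinase (CIT). Anillin (ANLN) ties actin, myosin, septins and RHOA together at the furrow, and septins are GTP-binding proteins that polymerise into filaments beneath it. CEP55 gathers the ESCRT machinery at the midbody, where the daughters are finally parted. Many of these genes are transcribed mainly in late cell cycle stages, while RHOA and the septins are used throughout the cycle and outside division.

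Depth ranged from 61257859 to 69755291 counts per library, and the counts of the 9 genes ran from 2348 for CIT in siNUF2 3 to 45756 for RHOA in siCtrl 2. NUF2 itself stood at 14.8, 14.5 and 12.2 FPKM in siCtrl and at 1.53, 2.05 and 1.56 FPKM in siNUF2, which left 12.4% of its control mean. As for the labelled cell type, the thyroid follicular marker NKX2-1 was above 1 FPKM in every library, and TG, FOXE1 and SLC5A5 were at or near 0. VIM, KRT8 and KRT18 were abundant in all 6 libraries, while the epithelial genes EPCAM and CDH1 were at no more than 0.243 FPKM. Among 7 markers of other cell types, HBB, the beta globin of red blood cells, was listed at 12.4 FPKM in siCtrl 1 and at 4.24 FPKM in siNUF2 1, against at most 0.0728 FPKM in the other 4 libraries. PTPRC and CD3E, markers of white blood cells, were also highest in these 2 libraries, at no more than 0.518 FPKM. The other markers did not follow this pattern: CD14, of monocytes, was at 2.10, 2.23 and 1.99 FPKM in siCtrl and at 0.703, 2.05 and 1.53 FPKM in siNUF2, and VWF, of endothelium, was lowest in the libraries numbered 1. The 7 markers summed to between 2.54 and 15.5 FPKM in siCtrl and between 2.26 and 5.46 FPKM in siNUF2. Main values are therefore also given below without both libraries numbered 1, a check added after these levels were seen.

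ANLN and RACGAP1 were the members with lower levels in the knockdown cells, and since these values chose the set they are given as a description. ANLN was at 55.0, 61.7 and 61.2 FPKM in siCtrl 1 to 3 and at 33.9, 36.4 and 44 FPKM in siNUF2 1 to 3. The highest knockdown library thus stayed below the lowest control library, and siNUF2 3 was the knockdown library nearest to the controls. Its mean was 59.3 ± 3.76 FPKM (SD, n = 3) in control cells and 38.1 ± 5.27 FPKM (SD, n = 3) in knockdown cells, or 64.2% of control. The fitted log2 fold change was -0.62 with a standard error of 0.120.

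RACGAP1, the GTPase-activating subunit of centralspindlin, was at 22.4, 25.1 and 24.3 FPKM in siCtrl and at 16.7, 16.5 and 18.4 FPKM in siNUF2. Again the groups did not overlap, and the knockdown mean of 17.2 ± 1.03 FPKM (SD, n = 3) was 71.9% of the control mean of 23.9 ± 1.35 FPKM (SD, n = 3). The fitted log2 fold change was -0.46 with a standard error of 0.0945. Without both libraries numbered 1 the log2 fold changes were -0.59 for ANLN and -0.47 for RACGAP1. These 2 members were the only ones of the 9 called in the fit across all genes, where lower means an adjusted p under 0.05 in edgeR's quasi-likelihood test. Over all genes tested, 2.46% were called lower and 3.99% were called in either direction. Since the contrast selected the members, nothing is read from their count. RACGAP1 lay just inside the threshold with an adjusted p of 0.0401 in edgeR, and ECT2 was the nearest member outside it with 0.276. Both calls depended on the full set of libraries: with any 1 library left out, RACGAP1 had an adjusted p from 0.0698 to 0.153 in edgeR, and ANLN kept its call only without siNUF2 3, with 0.0263.

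ECT2, the RhoA exchange factor that RACGAP1 recruits, was at 22.0, 27.8 and 23.5 FPKM in siCtrl and at 21.9, 19.9 and 18.2 FPKM in siNUF2. The ranges did not overlap, but siCtrl 1 and siNUF2 1 were almost level, and the knockdown mean was 81.8% of control. The log2 fold change of -0.27 had a standard error of 0.117 and was not called. It was -0.17 without siCtrl 2, the highest library, and -0.40 without both libraries numbered 1. The FPKM ranges of 3 of the 9 members, ANLN, RACGAP1 and ECT2, were thus separate, and such a separation was found for 23.9% of all genes tested.

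**Figure D1:**
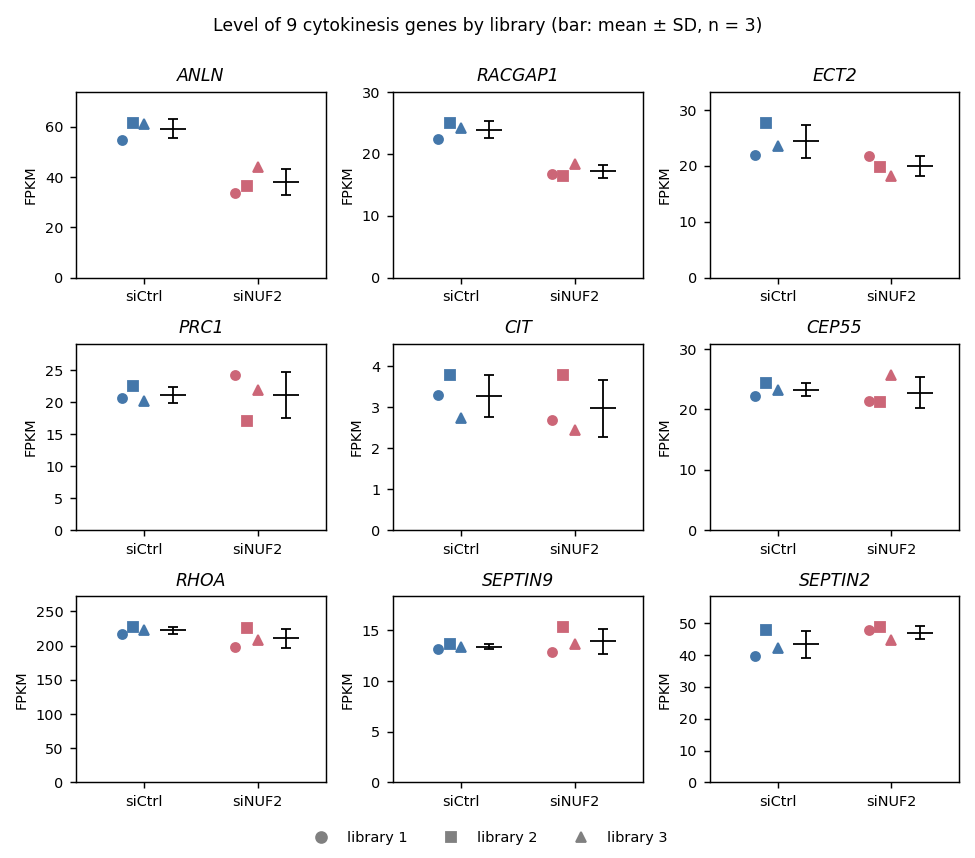
FPKM of each of the 9 cytokinesis genes (vertical axes from 0) in the 3 siCtrl and 3 siNUF2 libraries, with the marker shape giving the library number and the bar the mean ± SD. The knockdown libraries of ANLN lie between 33.9 and 44, below all 3 control libraries, while the groups of PRC1, CEP55 and RHOA overlap.

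The remaining members had groups that overlapped. PRC1, the microtubule bundler, was at 20.7, 22.5 and 20.2 FPKM in siCtrl and at 24.3, 17.1 and 22.0 FPKM in siNUF2. Its means were equal to 3 digits, at 21.1 FPKM in either group, while the knockdown libraries spread more widely, with an SD of 3.65 against 1.22 FPKM. CEP55, the midbody scaffold, was at 22.2, 24.3 and 23.3 FPKM in siCtrl and at 21.4, 21.2 and 25.7 FPKM in siNUF2, where the extremes of both groups lay in the knockdown cells. CIT, the kinase that acts downstream of RHOA at the midbody, was the least abundant member, at 3.30, 3.78 and 2.75 FPKM in siCtrl and at 2.68, 3.77 and 2.46 FPKM in siNUF2. Library 2 was the highest for CIT in both groups and library 3 the lowest.

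RHOA, the GTPase that starts ring assembly, was the most abundant member, with 217, 226 and 223 FPKM in siCtrl and 198, 226 and 208 FPKM in siNUF2. SEPTIN9 was at 13.2, 13.7 and 13.3 FPKM in siCtrl and at 12.9, 15.3 and 13.6 FPKM in siNUF2. SEPTIN2, the septin of the filament core that binds myosin, was at 39.8, 48.0 and 42.3 FPKM in siCtrl and at 47.9, 48.7 and 44.7 FPKM in siNUF2, so that siCtrl 2 fell inside the knockdown range. The log2 fold changes of these 6 genes ran from -0.12 for CIT to 0.14 for SEPTIN2, with standard errors from 0.0901 to 0.189, and 0 of the 6 were called in edgeR or DESeq2 or had an unadjusted p under 0.05 in edgeR. The value of SEPTIN2 was 0.08 without siCtrl 1 and 0.22 without siCtrl 2. Over all 9 members 6 of the fitted log2 fold changes were below 0 and the median was -0.06, against 48.9% of all genes tested below 0 and a median of 0.01.

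Per length, the order of the levels in control cells was RHOA, ANLN, SEPTIN2, ECT2, RACGAP1, CEP55, PRC1, SEPTIN9 and CIT. ECT2, RACGAP1, CEP55 and PRC1 followed each other with means from 24.4 to 21.1 FPKM, and each overlapped the next in its range over 3 libraries, so that these 4 neighbours did not differ beyond their spread. In knockdown cells ANLN came below SEPTIN2, with separate ranges, and RACGAP1 below CEP55, PRC1 and ECT2, though its range overlapped those of PRC1 and ECT2. The gene length that each FPKM value implies varied by at most 2.17% between libraries for any member. It was worked out with the sum of the deposited counts as the library total, so it gives the authors' lengths only up to a factor that all genes of a library share. For SEPTIN9 it ran from 15844 to 16174 bases, against 13772 bases for merged exons. For RACGAP1 it ran from 5161 to 5271 bases, against 4487. The order of levels rests on the lengths the authors used, which are not stated. For CIT it ran from 15277 to 15609 bases, against 28605 bases for the merged exons of its transcripts in GENCODE release 44, and for RHOA from 2871 to 2931 against 4805, so a longer gene model would lower both levels.

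Some ratios between 2 genes within a library showed the same shift without any scaling between libraries. The FPKM ratio of RACGAP1 to KIF23, its partner in centralspindlin, was 0.926, 1.03 and 0.951 in siCtrl and 0.715, 0.721 and 0.754 in siNUF2. KIF23 itself stood at 24.7 ± 0.709 FPKM in control cells and at 23.5 ± 0.779 FPKM in knockdown cells (SD, n = 3 each). ANLN to CEP55 gave 2.48, 2.54 and 2.63 in siCtrl and 1.58, 1.71 and 1.71 in siNUF2. For ECT2 to RHOA the groups overlapped, with means of 0.110 and 0.0954. Because the numerators helped choose the set, these ratios are a description too.

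The library number is a contrast that did not choose the members. Libraries of the same number in siCtrl and siNUF2 deviated together across genes, and a test of the number with the group held fixed called 7.60% of all genes. Of the 9 members 0 were called in edgeR, against 2 with an unadjusted p under 0.05 (ANLN and CIT), which 27.1% of all genes had. CIT came nearest, with fitted library numbers 0.54 apart on the log2 scale and an adjusted p of 0.0533 in edgeR. DESeq2's likelihood ratio test called CIT, with an adjusted p of 0.00326, and called 18.1% of all genes. For ANLN the spread between numbers was 0.28 on the log2 scale (adjusted p = 0.175 in edgeR). For RACGAP1 it was 0.14 (adjusted p = 0.537 in edgeR).

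Within groups, ANLN, RACGAP1 and CEP55 moved together from library to library although only 2 of them were lower in the knockdown. After each group's mean was removed from log2 CPM (counts scaled to a common library size), the deviations of ANLN and CEP55 correlated with r = 0.95 over the 6 libraries. RACGAP1 correlated with CEP55 at r = 0.93 and with ANLN at r = 0.91. RHOA and SEPTIN9 gave r = 0.99, and these 4 were the only ones of 36 pairs above 0.9. Of the 36 pairs 14 had r below 0, the lowest being PRC1 with SEPTIN9 at -0.89. The points share libraries and depth. Of all genes tested, 0.623% correlated with ANLN at least as highly as CEP55 did and 1.69% at least as highly as RACGAP1 did. With RACGAP1, 1.36% did so as highly as CEP55, and with RHOA 0.145% as highly as SEPTIN9. The 4 pairs were picked as the highest of the 36, which favours low shares, so nothing is read from these shares. In siNUF2 3, CEP55 lay 0.18 and ANLN 0.22 above the mean of its group on the log2 scale.

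**Figure D2:**
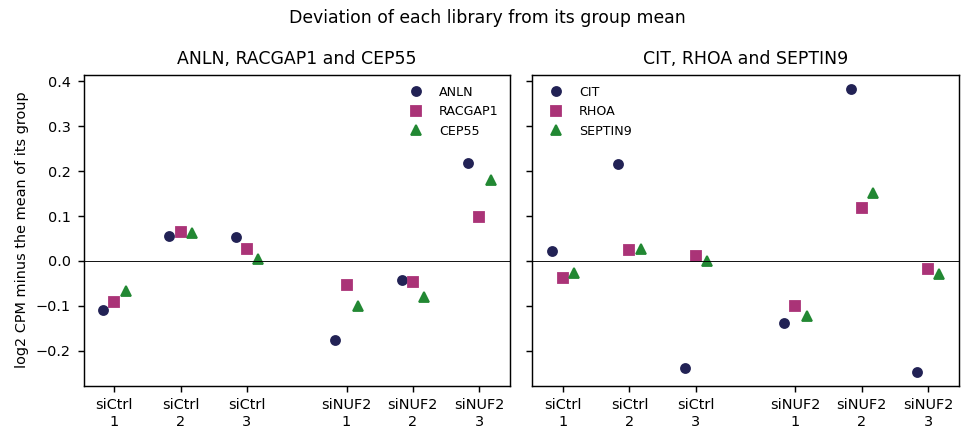
Deviation of each library's log2 CPM from the mean of its group (vertical axis, log2 units) for 6 of the genes, with siCtrl and siNUF2 libraries 1 to 3 along the horizontal axis. ANLN, RACGAP1 and CEP55 are lowest in siNUF2 1 and highest in siNUF2 3 among the knockdown libraries, whereas CIT, RHOA and SEPTIN9 are highest in siNUF2 2.

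The genes whose log2 CPM resembled ANLN most over the 6 libraries were ARL6IP1, BCAT1, SPRED1, SLC44A1 and KPNA2, with r from 0.990 to 0.996. With the group means removed these 5 had r from 0.94 to 0.98. KPNA2 is an importin that carries proteins into the nucleus, and its log2 fold change was -0.24. Among the genes most like RACGAP1 were KPNA4, RDH10, KIF5B and VPS37A, with r from 0.995 to 0.996, and from 0.95 to 0.97 without group means. KIF5B is a heavy chain of conventional kinesin and VPS37A a subunit of ESCRT-I. On log2(FPKM + 1), 4 of the 5 genes were shared for ANLN. All these genes were picked as the highest r over all genes tested. The same 6 libraries hold the group difference that chose ANLN and RACGAP1, so high r follows from the picking and nothing is read from it.

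The rest of the cytokinesis machinery was read from a list of 60 other genes sorted by role, of which 54 were tested. In edgeR 1 of them was called lower and 0 higher. ARHGAP35, a GTPase-activating protein that acts on RHOA, fell to 68.5% of control. It was at 6.34, 7.33 and 5.73 FPKM in siCtrl and at 4.56, 4.63 and 4.09 FPKM in siNUF2, with a log2 fold change of -0.53, a standard error of 0.116 and an adjusted p of 0.0480 in edgeR. Against 3.99% of all genes called, this is 1 of 54, and with any 1 library left out it was 0 of 54 in edgeR. Without a block 11 of the 54 had an unadjusted p under 0.05, as did 18.2% of all genes tested, and DESeq2 called 4 of the 54 and 8.29% of all genes. With the library number as a block, edgeR called 14.5% of all genes and 9 of the 54, while the members called stayed at ANLN and RACGAP1.

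**Figure D3:**
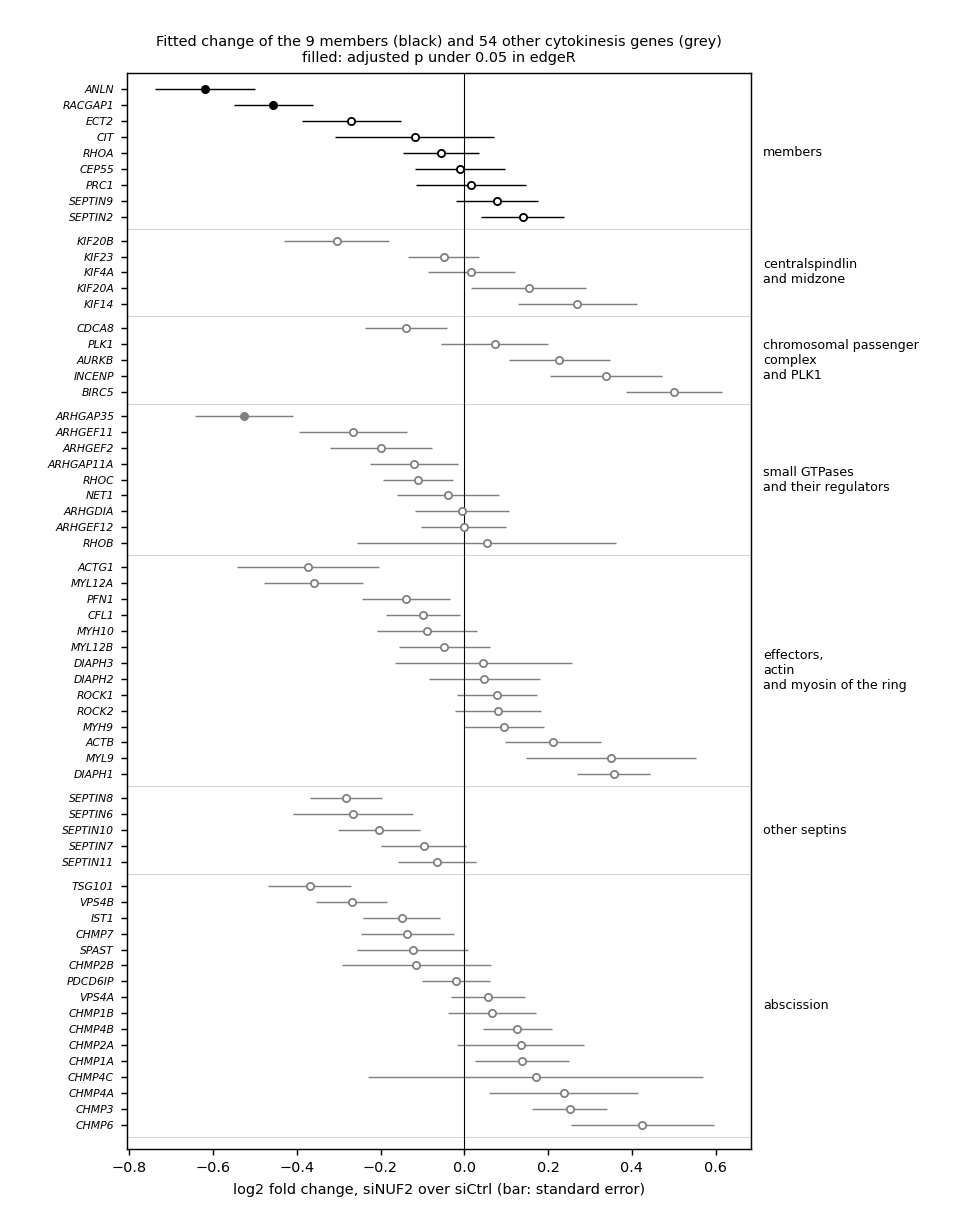
Fitted log2 fold change, siNUF2 over siCtrl, with its standard error (horizontal axis) for the 9 members in black and 54 other cytokinesis genes in grey, grouped by role. Filled points have an adjusted p under 0.05 in edgeR and are ANLN, RACGAP1 and ARHGAP35, at -0.62, -0.46 and -0.53.

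In the midzone group, which holds the kinesins that build the central spindle, 0 of 5 were called in edgeR or DESeq2 and 1 (KIF20B) had an unadjusted p under 0.05. KIF20B had the lowest log2 fold change (-0.30) and KIF14 the highest (0.27). KIF23, the obligate partner of RACGAP1, had -0.05 (adjusted p = 0.821 in edgeR), and KIF4A, which travels with PRC1, had 0.02. The chromosomal passenger complex and PLK1, the kinases that license ECT2 and centralspindlin at anaphase, had 0 of 5 called in edgeR, 2 with an unadjusted p under 0.05, and 1 called in DESeq2 (BIRC5). In this group BIRC5 (survivin) was at 19.7, 25.1 and 23.8 FPKM in siCtrl and at 30.3, 33.2 and 32.1 FPKM in siNUF2, with no overlap. Its log2 fold change of 0.50 missed the threshold at an adjusted p of 0.0548 in edgeR, and had 0.00550 with the block, where INCENP (0.34 without the block) was called too. CDCA8 (borealin) was the lowest of the 5 with -0.14.

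Among the small GTPases beside RHOA and their regulators, 8 of 9 had a log2 fold change below 0, against 48.9% of all genes tested. ARHGAP35 was lowest and RHOB highest at 0.05. Of the 14 effectors of RHOA, actins and myosins of the ring, edgeR called 0 without the block, with 2 at an unadjusted p under 0.05 (MYL12A and DIAPH1), and DESeq2 called 1 (DIAPH1). ACTG1, the gamma actin of non-muscle cells, was lowest at -0.37 and its adjusted p was 0.297 in edgeR and 0.0145 with the block. DIAPH1, the formin that RHOA activates, was highest. It was at 23.9, 24.2 and 25.3 FPKM in siCtrl and at 31.2, 28.9 and 32.5 FPKM in siNUF2. Its log2 fold change of 0.36 had an adjusted p of 0.0708 in edgeR and 0.0125 with the block. MYL12A, a myosin light chain, had -0.36 and was called lower with the block, at 0.0226.

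All 5 other septins that were expressed well enough to test had log2 fold changes below 0, from -0.28 for SEPTIN8 to -0.06 for SEPTIN11. Over all genes tested 48.9% were below 0. SEPTIN2 and SEPTIN9 had 0.14 and 0.08, with standard errors of 0.0993 and 0.0981. Of the 5 other septins, edgeR and DESeq2 called 0, although SEPTIN8 had an unadjusted p under 0.05. With the block edgeR called 1 (SEPTIN8, adjusted p = 0.0418). The 16 abscission genes, which include the ESCRT proteins that CEP55 gathers, had 0 called in edgeR without the block, 4 with an unadjusted p under 0.05, and 1 called in DESeq2 (TSG101). TSG101, the ESCRT-I subunit that CEP55 binds, was lowest with -0.37 (adjusted p = 0.0948 in edgeR, 0.0131 with the block). CHMP6 was highest with 0.43 (adjusted p = 0.241 in edgeR). VPS4B, one of the ATPases that take ESCRT-III apart, had -0.27 and was the other abscission gene called with the block.

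Levels of cell cycle markers bear on genes with late cell cycle transcription. Of 12 mitotic markers, 0 were called in edgeR or DESeq2, 1 had an unadjusted p under 0.05, and 1 (CENPF, higher) was called with the block. The summed level of the 12 ran from 659 to 681 FPKM in siCtrl and from 645 to 690 FPKM in siNUF2. Of 12 S-phase markers, edgeR called 0 without the block and DESeq2 called 1. In edgeR 5 of these 12 had an unadjusted p under 0.05 and 6 were called higher with the block. Their sum ran from 315 to 394 FPKM in siCtrl and from 384 to 486 FPKM in siNUF2. The library number was called in edgeR for 4 of the 12 S-phase markers, against 7.60% of all genes. Over all genes tested, 18.2% had an unadjusted p under 0.05 in edgeR, 8.29% were called in DESeq2 and 14.5% in edgeR with the block. In bulk RNA a change in the share of cells at a stage and a change per cell cannot be told apart, and the part of cell cycle stage in the levels of ANLN and RACGAP1 was not tested.

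The siRNA against NUF2 matches the coding sequence of exon 6 of 14 of NUF2, on the plus strand of GRCh38 at chr1:163336814-163336834. It is shown because bases 2 to 8 of its guide strand, the seed, can pair with other mRNAs in the manner of a microRNA. Capitals mark the seed in the guide and the word opposite it in the target, both read from the GENCODE release 44 transcript of NUF2.
NUF2 target: gccgtgaaacgtaTATGGAAt
guide strand: aUUCCAUAuacguuucacggc

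The 7-base word TATGGAA, searched on the sense strand of the longest 3′ UTR of each gene, was present in 3 of the 9 members and in 18.3% of the 10235 tested genes with a 3′ UTR. The members were RACGAP1, ECT2 and CIT, with 1 word each. Its last 6 bases, ATGGAA, which every copy of the longer word contains, were present in 5 of 9 members and in 51.0% of those genes. RHOA and SEPTIN9 held only the shorter word. Among the 284 genes called lower that have a 3′ UTR, 62.0% held the longer word and 93.0% the shorter. These genes had a median 3′ UTR of 2848 bases, against 1832 bases for all those tested. The part of 3′ UTR length in these shares was not tested. ANLN, PRC1, CEP55 and SEPTIN2 held neither word in the longest 3′ UTR or in that of any other transcript. The log2 fold changes of the 3 members with the longer word were -0.46 for RACGAP1, -0.27 for ECT2 and -0.12 for CIT. Of these RACGAP1 alone was called, and whether the words bear on these levels was not tested. The 3 longer words are shown on the strand of the gene with the word in capitals.
RACGAP1, chr12:49989989-49990018, minus strand: agaagggttagTATGGAAttggttgtgatt
ECT2, chr3:172820601-172820630, plus strand: atgaatgaattTATGGAAatagatatttgt
CIT, chr12:119688156-119688185, minus strand: accaaacacacTATGGAActctgctgatgg

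Coordinates are those of GRCh38. In RACGAP1 the word begins at base 261 of a 3′ UTR of 1106 bases, and in CIT at base 5488 of 7859. In ECT2 it is followed by an A and begins at base 510 of 1371. In the coding sequences, counted after the other values were seen, the 7-base word was present once each in RACGAP1, ECT2 and PRC1, and the 6-base word in all members except SEPTIN9 and SEPTIN2, with 1 copy in ANLN. A word is a description of the sequence, and pairing at these places was not measured.

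Promoter windows from RefSeq (GRCh38.p14), 250 bases before to 50 after a start, were matched for 8 of the 9 members, all except RACGAP1, and 20 windows were found. They were searched for the letters of the cell cycle homology region (CHR), an element of promoters active in late cell cycle, and for the CCAAT box. The CHR search used TTTGAA and TTCGAA on both strands, so that TTTGAA can also be read as TTCAAA. Such a word was in at least 1 window of ANLN, ECT2, PRC1, CIT and CEP55 and in no window of RHOA, SEPTIN2 or SEPTIN9. Counted by window, it was present in 6 of the 20, or 30%, against 16.4% of all promoter windows and 11.8% of windows of genes tested. Within 60 bases before the start and 50 after it, the same 5 members held a word. Counted by window, this was 5 of the 20, or 25%, against 5.23% of all windows and 3.74% of windows of genes tested. CCAAT on either strand was in at least 1 window of each matched member except ANLN. Counted by window, CCAAT was in 8 of the 20, or 40%, against 34.6% of all windows and 35.3% of windows of genes tested. Whether these words bear on the levels of the members was not tested, and RACGAP1, the other member called lower, had no matched window. For the 5 members with a CHR word, the one nearest to the start is shown in capitals on the strand of the gene.
ANLN, chr7:36389830-36389859, plus strand: ctgaaattcaaaTTTGAAcggctgcagagg
ECT2, chr3:172750746-172750775, plus strand: agagcagcttagttTTTGAAtcggttgtgg
PRC1, chr15:90994538-90994567, minus strand: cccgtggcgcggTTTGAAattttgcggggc
CIT, chr12:119877293-119877322, minus strand: ccgttcctcgggTTCAAAcgcggcggcggg
CEP55, chr10:93496597-93496626, plus strand: gcagccgcgggaTTCAAActcccggaagcg

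The ANLN and PRC1 words begin 20 bases before the start, and the ANLN window holds a further copy in the other orientation directly beside the one shown. The word of CEP55 begins 3 bases before its start, while those of CIT and ECT2 lie after it, at 10 and 34 bases. No factor binding was measured in these libraries.

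**Figure D4:**
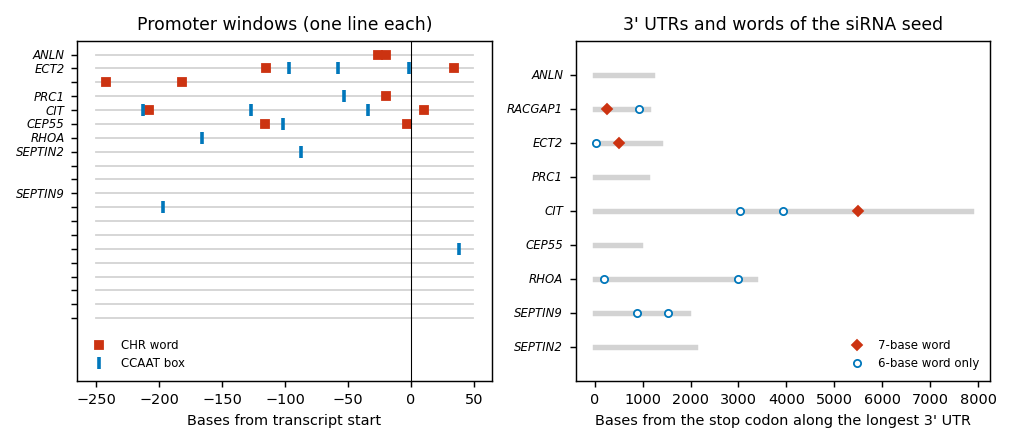
Left, CHR words (squares) and CCAAT boxes (bars) by distance in bases from the transcript start, with 1 line for each of the 20 promoter windows. Right, words of the siRNA seed by distance in bases from the stop codon along the longest 3′ UTR of the 9 genes (grey bars), with diamonds for the 3 copies of the 7-base word and circles for 6-base words outside it.

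By the annotation carried in the deposited table, all 9 members bear the term cell division, 7 the term midbody and 6 the term mitotic cytokinesis. Over 10223 annotated genes tested, these terms were found for 3.56%, 1.38% and 0.460%. The members were picked by name for such roles, so these counts follow from the choice and nothing is read from them. ANLN lies on chromosome 7 from 36389821 to 36453791 (plus strand) and RACGAP1 on chromosome 12 from 49976923 to 50025518 (minus strand). ECT2 lies on chromosome 3 from 172750682 to 172821474 (plus strand), all in GRCh38 as the table gives them. Some members overlap other genes, and the strand used in counting is not given in the sources used here. SEPTIN2 overlaps HDLBP (28.8 FPKM) and RHOA overlaps TCTA (7.98 FPKM), both on the opposite strand, and PRC1 overlaps AC068831 (8.72 FPKM) on its own strand, so reads of these pairs may be shared. For ANLN the overlapping gene was KIAA0895 at 1.52 FPKM, and for RACGAP1 it was AQP6 at 0.0225 FPKM.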

How the data were processed

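RNA-seq of 6 libraries of 8505C cells was analysed, 3 of siCtrl and 3 of siNUF2, grouped by their labels. The submitters' processing notes name fastp, HISAT2, StringTie and the build GRCh38 (hg38). The authors deposited raw counts, whole numbers per gene, and FPKM, scaled by gene length and library size. Versions, annotation release and strand setting are not given in the sources used here. Every count and FPKM column entered the work.

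The 9 members and the gene lists were chosen with earlier results of these data known. Genes with a mean of at least 1 FPKM were tested with edgeR 4.0.16 (quasi-likelihood, TMM factors, group only, R 4.3.3) on the deposited counts, with Benjamini-Hochberg adjustment over 11725 genes and a threshold of 0.05. The library number was tested as 2 further terms beside the group. Code was tested on simulated counts. No exact permutation p can go below 0.1 with 3 against 3 libraries, so none is given. Genes named were the members, NUF2, other cytokinesis genes called, the highest and lowest of each role, and the 5 genes most like ANLN and RACGAP1 by Pearson r of log2 CPM. Genes called only with the block, KIF23, KIF4A and the markers were named after their values were seen. Some items that these rules name are not reported here.

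Libraries of equal number paired: correlations of deviations from group means across genes were 0.344 to 0.446, and -0.263 to -0.141 for unequal numbers. What a number shares is not stated. Of the table's gene IDs, 75.9% had the same start and end in GENCODE release 44, from which the 3′ UTRs (at least 50 bases) were taken. Alternatives were no filter, a minimum of 5 FPKM, DESeq2 1.42.0 and its size factors, upper-quartile factors, limma 3.58.1 on log2(FPKM + 1) or + 0.1, the block, and leaving out libraries.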

Additional observations from a re-analysis of the deposited data

How the results depend on the processing

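The log2 fold changes of ANLN and RACGAP1 stayed below 0 in all 15 alternatives, from -0.73 to -0.53 and from -0.51 to -0.42. ECT2 was called in none of its 15 (-0.40 to -0.17), nor SEPTIN2 (0.08 to 0.22). The number of genes called, 468, was 188 with no filter, 972 in DESeq2 and 1705 with the replicate block, and from 124 to 251 with 1 library left out, fewest without siNUF2 1. The 2 members called became 0 with no filter, 1 (ANLN) in limma on log2(FPKM + 1), 0 in limma on log2(FPKM + 0.1), and from 0 to 1 with 1 library left out. With the replicate block they were again ANLN and RACGAP1. The 1 other cytokinesis gene called became 0 with no filter and in both limma fits, 4 in DESeq2 (TSG101, BIRC5, DIAPH1 and ARHGAP35), 9 with the replicate block, and from 0 to 0 with 1 library left out. For the library number, DESeq2 called 1 member, and the genes called, 891 of 11725, were 0 of 32985 with no filter, 458 in limma and 2128 in DESeq2. In each fit of siNUF2 against siCtrl that called 0 members, 2 to 3 members had an unadjusted p under 0.05. In each fit of the library number that called 0 members, 1 to 2 had one.

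Without both libraries numbered 1, added after the data were seen, edgeR called 0 genes, 0 members and 0 other cytokinesis genes (3 members and 4 others had an unadjusted p under 0.05). NUF2 then had a log2 fold change of -2.85 and an adjusted p of 0.0577 in edgeR. Only 2 libraries a group remain there.

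Values near 0 changed sign. PRC1, 0.02, became -0.0042 with a minimum of 5 FPKM, -0.014 and -0.015 in the limma fits with + 1 and + 0.1, -0.10 without both libraries numbered 1, and from -0.086 to 0.14 with 1 library left out (-0.013 without siCtrl 3, -0.014 without siNUF2 3). CEP55 became 0.0068 without both libraries numbered 1 and 0.022, 0.040 and 0.032 without siCtrl 2, siNUF2 1 and siNUF2 2, in a range from -0.11 to 0.040. CIT ranged from -0.34 to 0.0013 (without siNUF2 3), and SEPTIN9 from -0.00099 (without siNUF2 2) to 0.14. The cause of these changes was not tested. CIT has no value at a minimum of 5 FPKM. The count of members with the 7-base word was 3 also over all transcripts.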
